A study of Drosophila melanogaster with 4 samples.

Results

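Bound promoters of single-TSS genes are the regions where Chinmo-eGFP was found near the start of a protein-coding gene that has only 1 annotated transcription start site (TSS). Bound DNA was sequenced after chromatin immunoprecipitation (ChIP-seq) from whole Drosophila melanogaster embryos of 6 to 24 h from the strain chinmo-GFP, transgenic flies that make Chinmo fused to enhanced GFP, with 4 biological replicates of this 1 group. Peak summits of different libraries formed a region where their windows, reaching 100 bp either way, overlapped, and a region was kept when 2 or more of the 4 libraries contributed a summit. A region was a member when its centre, the median summit, lay within 1000 bp of TSSs of exactly 1 protein-coding gene and that gene had 1 distinct TSS position. This held for 639 of 3491 regions (18.3%), at 609 genes. The description of the samples names an antibody against GFP, whereas their antibody field names chinmo, and the promoter that drives the tagged protein is not given in the sources used here. Control libraries were not analysed here, and the peak lists hold no expression values against which the labelled tissue could be checked.

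Chinmo is a transcription factor with a BTB domain, through which such proteins pair, and C2H2 zinc fingers, which bind DNA. In flies it is known for setting the early temporal identity of neurons and for maintaining male identity in the stem cells of the testis. A promoter with 1 start site is the simplest case for asking where a factor sits relative to transcription initiation, because no choice between start sites has to be made. Fly promoters are often sorted by their sequence elements. The DNA replication-related element (DRE, TATCGATA) is bound by the factor DREF and is common at genes that most cells use, and the insulator protein BEAF-32 binds the related letters CGATA. GAGA factor, encoded by Trl, binds GAGAG repeats and keeps nucleosomes off the promoters of many developmentally controlled genes.

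The 9 windows printed here show the 2 motifs by which the members are sorted in what follows, and 361 of the 639 members (56.5%) had neither. They were taken from the RefSeq Release 6 genome, in dm6 coordinates, on the strand of the gene and 5′ to 3′. The first 5, of 51 bases, belong to members among the 20 highest-ranked in all 4 libraries and hold a DRE-type match. They were shifted from the centre where needed so as to end before the TSS, and capitals mark ATCGATA or its reverse complement TATCGAT. For mtSSB, which encodes the mitochondrial single-stranded DNA binding protein, the window was chr3R:16205251-16205301 on the minus strand. For CG11030 it was chr2L:5724603-5724653 on the plus strand. For Pcif1, the fly relative of a human RNA cap methyltransferase that binds the tail of RNA polymerase II, it was chr3L:20786199-20786249 on the minus strand. For jagn, which organises the endoplasmic reticulum, it was chr3R:5779264-5779314 on the plus strand. For eIF3f1, a subunit of translation initiation factor eIF3, it was chr3R:4714183-4714233 on the minus strand.
mtSSB: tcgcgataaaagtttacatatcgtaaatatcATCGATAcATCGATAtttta
CG11030: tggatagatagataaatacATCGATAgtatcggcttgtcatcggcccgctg
Pcif1: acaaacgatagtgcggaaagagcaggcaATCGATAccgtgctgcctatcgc
jagn: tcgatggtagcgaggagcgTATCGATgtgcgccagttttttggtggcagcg
eIF3f1: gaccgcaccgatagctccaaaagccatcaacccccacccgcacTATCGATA

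In the other 4 windows, of 101 bases about the region centre, capitals mark GAGAG or its reverse complement CTCTC. They belong to Glyp, which encodes glycogen phosphorylase (chr2L:2130460-2130560), brk, the repressor of Dpp target genes (chrX:7307656-7307756), E(spl)m3-HLH, a Notch-induced repressor of the Enhancer of split complex (chr3R:26020958-26021058), and caps, a leucine-rich repeat adhesion protein of axons (chr3L:13228510-13228610), all on the plus strand. These examples were centred on the region, and they run from 353 to 253 bases before the TSS in Glyp and from 865 to 765 bases in E(spl)m3-HLH, farther than is usual for members with this motif.
Glyp: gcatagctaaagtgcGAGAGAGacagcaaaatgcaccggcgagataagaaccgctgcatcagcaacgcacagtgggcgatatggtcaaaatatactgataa
brk: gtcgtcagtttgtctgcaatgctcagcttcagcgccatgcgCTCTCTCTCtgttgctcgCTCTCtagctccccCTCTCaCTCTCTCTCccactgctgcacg
E(spl)m3-HLH: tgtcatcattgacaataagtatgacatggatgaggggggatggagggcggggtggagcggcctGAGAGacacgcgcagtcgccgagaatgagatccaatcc
caps: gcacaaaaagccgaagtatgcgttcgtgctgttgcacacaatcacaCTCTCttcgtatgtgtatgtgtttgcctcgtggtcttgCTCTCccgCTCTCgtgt

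Each library contributed its own list of peaks that passed the authors' threshold on the irreproducible discovery rate, with 3435, 4415, 2225 and 3038 peaks in replicates 1 to 4. Members had a summit in those lists 511, 575, 353 and 495 times, which was 14.9%, 13.0%, 15.9% and 16.3% of each list. A summit was present in 2 libraries for 221 members, in 3 for 180 and in all 4 for 238. Strength was read only as a rank percentile, the place of a peak's deposited signal value within its own list, with 100 for the strongest. Ranks of members were most alike between replicates 1 and 2 (Spearman's rho 0.705 over 474 shared members) and between replicates 3 and 4 (0.665 over 308), and rho was 0.547 to 0.608 for the other pairs, as a description. Read depth was unknown, and a peak missing from a list is not a measured absence of binding. Of the 286 members with no summit in replicate 3, 76.6% had a peak in its longer ranked list within 100 bp of the centre, against 82.8% to 92.2% of the 64 to 144 members missing from another replicate.

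Within the 1000 bp that the rule allowed, most centres lay close to the start site and upstream of it, much as at the other bound promoters. The median centre lay at -30 bp from the TSS (negative values are upstream), with quartiles of -103.5 and 26 bp. Of the 639 centres, 276 (43.2%) lay within 50 bp of the TSS, 392 (61.3%) within 100 bp and 95 (14.9%) beyond 500 bp. The median absolute distance was 63 bp, and 65.7% of centres were upstream. For promoters near TSSs of 2 or more genes these values were 46 bp and 65.3%, counted from the nearest TSS. For promoters of genes with alternative TSSs they were 99.5 bp and 62.9%. By annotation, 420 were upstream of the gene, 162 in the 5′ UTR, 48 in an intron, 6 in coding sequence and 3 beyond the far end of a short gene. In replicates 1 to 4, 64.6%, 66.8%, 65.2% and 66.7% of member summits were upstream (65.8% ± 1.10, SD, n = 4), so all 4 libraries were above 50%. The exact two-sided sign-flip permutation test over libraries gave p = 0.125, the smallest that 4 libraries allow, and 0.214 after Benjamini-Hochberg adjustment over the 12 tests of this kind made here.

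The rule on distance cut through a thin tail of regions. The members nearest to the limit were FMRFa, a neuropeptide gene, at 997 bp upstream, CG13315 at 990 bp upstream and snsl at 975 bp downstream, with mean rank percentiles of 70.0, 47.5 and 26.5. The regions just outside it were near CG43219, bab2 and CG34038, at 1010 bp upstream, 1019 bp upstream and 1029 bp downstream, with mean rank percentiles of 82.5, 41.8 and 52.3. The 95 members beyond 500 bp were found in all 4 libraries in 42.1% of cases, against 36.2% of the 392 members within 100 bp.

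Close to the centres, 2 sequence motifs were common that seldom stood together, and most members had neither. In the window of 101 bp about the centre, 147 members (23.0%, exact Clopper-Pearson 95% binomial interval 19.8% to 26.5%) held ATCGATA, which lies within the full DRE palindrome TATCGATA and is called the DRE motif here, on either strand. Windows of the same length 500 bp to each side held it in 1.25% of cases, and windows at the TSS of all single-TSS genes in 10.6%. GAGAG, called the GAGA motif, was found on either strand in 140 members (21.9%), in 12.1% of the flanking windows and in 10.7% of the TSS windows. Only 9 members held both, so 138 had the DRE motif alone, 131 the GAGA motif alone, and 361 (56.5%) neither. The full TATCGATA stood in 83 members (13.0%), in 0.391% of flanking windows and in 5.57% of the TSS windows. These letters were chosen with earlier results of these data known, and a match is a description and not a measured site of any factor.

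In percentage points, other core promoter letters differed less from the flanks, or the other way. TATAAA, the TATA box, was in 6.42% of member windows and 12.1% of flanks, the initiator letters TCAGTT or TCAGTC in 13.6% and 7.43%, and CACACACA in 5.48% and 2.50%. Windows at the TSS of all single-TSS genes held these in 18.6%, 21.8% and 1.32% of cases. The initiator letters were thus less frequent in members than there, although member windows were centred on the region and not on the TSS. GTCACAC, the core of Ohler motif 1, was rare, in 2.97% of member windows, 0.704% of flanks and 6.43% of the TSS windows. The core letters of the downstream promoter element were in 7.67%, 5.63% and 6.24%. Among all 2080 words of 6 letters counted with their reverse complements, TATCGA led by the difference between members (28.3%) and flanks (3.52%), followed by ATCGAT and CGATAG. In the windows at the TSS of all single-TSS genes TATCGA was found in 16.1% of cases. The word AGAGCG, in 14.1% of members and 4.23% of flanks, came 8th. In the window from 250 bp before the TSS to 49 bp after it, the DRE motif was present at 30.9% of member genes and at 17.9% of all 10246 single-TSS genes, and the GAGA motif at 41.5% and 28.1%. The median GC content of member windows was 47.5%, against 41.6% in the flanks, and it was 42.6% with the DRE motif and 51.5% with the GAGA motif.

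**Figure D1:**
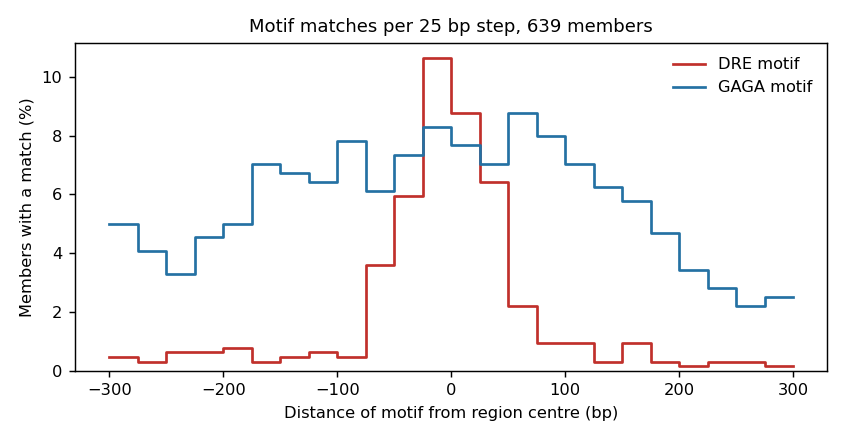
Share of the 639 members with a match on either strand in each step of 25 bp, by distance from the region centre in bp. The DRE motif rose to 10.6% just before the centre and stayed below 1% beyond 75 bp before it, whereas the GAGA motif was spread over the whole window.

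Member summits held the DRE motif more often than their flanks in every library. The share of member summits with the DRE motif was 20%, 20.5%, 31.2% and 26.3% in replicates 1 to 4, and that of the flanks 1.27%, 1.39%, 1.42% and 1.11%. The mean difference was 23.2 percentage points (± 5.28, SD, n = 4), above 0 in 4 of 4 libraries (exact two-sided sign-flip permutation p = 0.125, adjusted 0.214), and replicates 3 and 4 were the highest. Among all single-TSS genes, bound or not, 10.6% of windows at the TSS held this motif. Flanks 500 bp from a promoter summit are therefore a low baseline, and the direction of this test says little about binding.

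The classes differed in where they sat. With the DRE motif alone the median centre was at -29 bp from the TSS, with quartiles of -43 and -16 bp, and 80.4% lay within 50 bp. With the GAGA motif alone the median was at -58 bp, the quartiles were -148 and 66 bp, and 22.9% lay within 50 bp. The median absolute distance of the summits was 31, 31, 34 and 27 bp for the DRE class and 145.5, 135, 149 and 122 bp for the GAGA class. These library medians did not overlap between the classes, although the quartile ranges of the members did. The mean difference was -107 bp (± 9.54, SD, n = 4). The DRE class was nearer to the TSS in 4 of 4 libraries (exact two-sided sign-flip permutation p = 0.125, adjusted 0.214). At the 9637 other single-TSS genes, matches were sought from 250 bp before the TSS to 49 bp after it. Their median position was -44 bp for the DRE motif and -101 bp for the GAGA motif, with GAGA quartiles of -161 and -42 bp. Letters spread evenly over that window would also have a median near its middle, so the GAGA value does not show a preferred place. Because the classes were made by these letters near the centre, the test cannot separate the place of binding from that of the letters. The size of the difference depended on the distance limit of the rule, with -68.5 bp for a TSS within 500 bp and -57.4 bp within 250 bp. Members with neither motif had a median of -26 bp, with 35.7% within 50 bp. Of the 95 members beyond 500 bp, 3 had the DRE motif and 31 the GAGA motif.

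**Figure D2:**
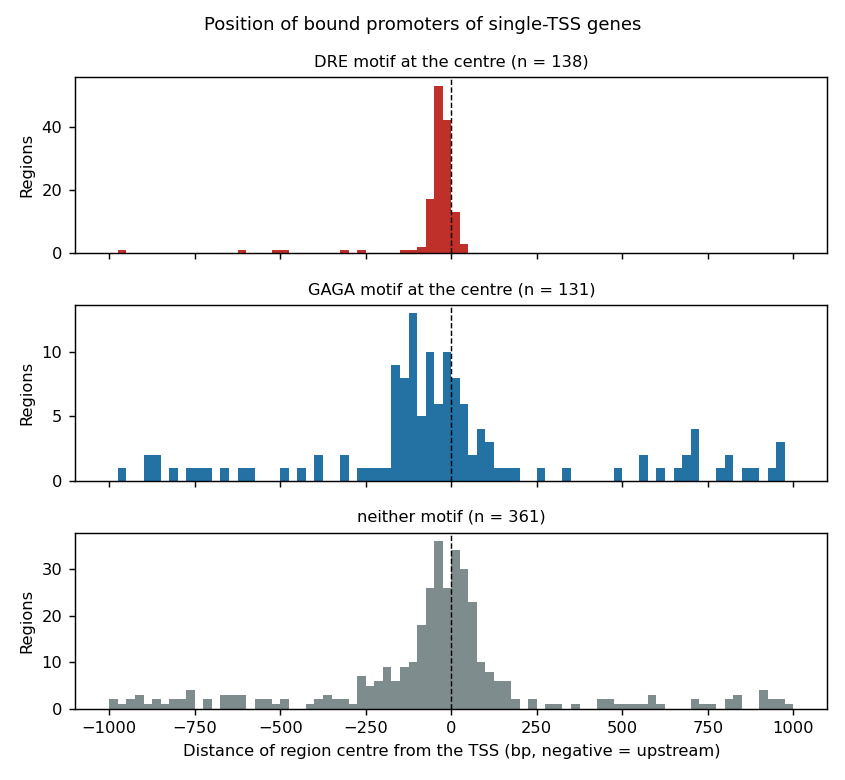
Number of member regions per 25 bp by the distance of the centre from the TSS in bp (negative upstream, dashed line at the TSS), for 138 regions with only the DRE motif, 131 with only the GAGA motif and 361 with neither. The first class forms a narrow peak with a median of -29 bp, and the second is broad, with a median of -58 bp.

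The order of the classes varied between libraries. Members with the DRE motif alone had a summit in 77.5%, 83.3%, 71.7% and 89.1% of cases in replicates 1 to 4, and members with the GAGA motif alone in 79.4%, 96.2%, 45.0% and 69.5%. A member needed a summit in 2 or more of these same libraries, so the rule itself shapes these shares. The test on them therefore cannot show a difference in binding. The GAGA class was thus ahead in replicates 1 and 2 and the DRE class in replicates 3 and 4, with a mean difference of 7.92 percentage points (± 18.4, SD, n = 4; exact two-sided sign-flip permutation p = 0.5, adjusted 0.6), which is smaller than the spread between libraries. Without replicate 2 the difference was 2.69 points, without replicate 3 it was 3.05 and without replicate 1 it was 3.93, with the classes rebuilt each time. In all 4 libraries 47.8% of the DRE class was found (39.3% to 56.5%) and 30.5% of the GAGA class (22.8% to 39.2%), as exact binomial intervals that cover counting error only. It was 37.2% over all members and 35.5% with neither motif (30.5% to 40.6%). Presence in all 4 libraries also hangs on replicate 3, whose peak list was the shortest.

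Rank percentiles varied in a like way. The median was 58.3, 68.2, 59.6 and 73.5 for the DRE class, 60.9, 66.2, 45.5 and 51.5 for the GAGA class, and 60.7, 64.8, 54.9 and 59.6 with neither motif. The DRE class stood 14.1 and 21.9 points above the GAGA class in replicates 3 and 4, and -2.53 and 1.91 points from it in replicates 1 and 2. The mean difference of 8.84 points (± 11.2, SD, n = 4) did not exceed the spread between libraries (exact two-sided sign-flip permutation p = 0.375, adjusted 0.5), and it was 2.20 without replicate 2, 2.59 without replicate 4 and 5.08 without replicate 3. At promoters of genes with alternative TSSs the same difference was 1.88, 0.11, 12.4 and 17.5 points, and at promoters near TSSs of 2 or more genes 7.57, 1.90, -2.40 and 9.18 points. Of the 72 GAGA members missing from replicate 3, 65.3% were in its ranked list, and of the 39 missing DRE members 84.6%. Replicate 3 had the shortest peak list, and the part of list length in these differences was not tested.

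**Figure D3:**
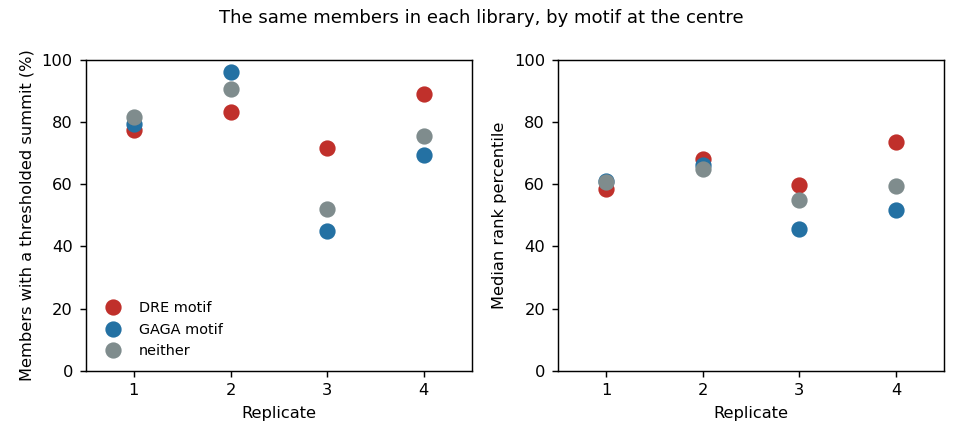
For each of the 4 replicates, the share of members with a summit in the thresholded list (left, %) and the median rank percentile of those summits (right, 0 to 100), by motif at the centre. In replicate 3, 71.7% of the DRE class and 45.0% of the GAGA class had a summit, and in replicate 2 the order was the other way.

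Compared with the other bound promoters, the members stood between the other 2 classes in motif content. The share of summits with the DRE motif in members minus that at promoters of genes with alternative TSSs was 11.3, 11.3, 16.6 and 13.1 points in replicates 1 to 4. Minus that at promoters near TSSs of 2 or more genes it was -10.6, -13.5, -6.14 and -11.5 points. In means, 24.5% of member summits held it, 11.4% with alternative TSSs and 34.9% near several genes. The GAGA motif ran the other way, with 21.3% of member summits, 34.0% with alternative TSSs and 16% near several genes. Each of these 4 differences had the same sign in 4 of 4 libraries (exact two-sided sign-flip permutation p = 0.125, adjusted 0.214), and the comparisons were chosen after the values were seen. Regions away from any promoter held the DRE motif in 0.893% of cases and the GAGA motif in 27.1%.

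The median rank percentile of members was 59.6, 66.2, 55.3 and 61.2, that of promoters with alternative TSSs 63.8, 66.2, 55.4 and 60.7, and that near several genes 56.1, 61.1, 57.7 and 60.0. The members differed by -0.97 points (± 2.19, SD, n = 4) from promoters with alternative TSSs (exact two-sided sign-flip permutation p = 0.625, adjusted 0.682), and only replicate 1, at -4.24, lay more than 1 point away. Without replicate 1 the mean was -0.08. It was -2.08 (± 1.44, SD) with 3 or more libraries required, -2.49 (± 1.84, SD) with the TSS within 500 bp and -2.65 (± 1.99, SD) within 250 bp, below 0 in 4 of 4 libraries in each case (exact two-sided sign-flip permutation p = 0.125, not adjusted). The members differed by 1.83 points (± 3.27, SD, n = 4) from promoters near several genes (exact two-sided sign-flip permutation p = 0.375, adjusted 0.5), with replicate 3 below 0. In all 4 libraries 37.2% of members were found (33.5% to 41.1%), 31.9% of promoters with alternative TSSs (29.1% to 34.9%) and 36.5% near several genes (32.9% to 40.2%). The members thus stood 5.34 points above promoters with alternative TSSs, or 1.88 points in the upper 50% of each list and 3.45 without replicate 2. Their share was close to that near several genes. Peak width could not show a difference, because 95.9%, 94.0%, 91.7% and 91.8% of the peaks in the 4 lists had the same width of 400, 430, 396 and 420 bp.

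The member genes were longer than other single-TSS genes. Of the 9286 single-TSS genes that have at least 1 position near their TSS that the rule could select, 609 (6.56%) had a member region, against 18.8% of all 13945 protein-coding genes with any region within 1000 bp of a TSS. A region of any kind was near 13.7% of single-TSS genes and 33.1% of genes with alternative TSSs, which offer more start sites to be near. The median length was 4451 bp for member genes and 1755 bp for the other selectable genes, and the median of the first intron was 446 and 64 bp. The rule asks for no TSS of another coding gene near the centre, so it leaves crowded genes less room to be selected. In 5 equal groups of genes from the shortest to the longest, 1.61%, 3.12%, 4.30%, 6.90% and 16.9% were members. Genes of the DRE class had a median length of 3107.5 bp and those of the GAGA class 6484 bp. Genes known only by a CG number were 30.4% of member genes and 48.9% of the others.

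The lists of developmental zinc finger factors, developmental signalling genes, axon guidance genes and homeobox genes had the highest shares of members among the 32 lists. Most lists of basic cell machinery lay near or below the share of all genes. Over 8 lists of developmental regulators (homeobox, helix-loop-helix, Enhancer of split, zinc finger, nuclear receptor, and Sox, forkhead, T-box and Ets factors, signalling, and axon guidance), 67 of 241 selectable genes were members (27.8%, exact binomial interval 22.2% to 33.9%), beside 6.56% of all selectable genes. Over 8 lists of cell machinery (ribosomal proteins of the cytosol and of mitochondria, respiratory chain, proteasome, aminoacyl-tRNA synthetases, translation factors, general transcription machinery and vacuolar ATPase), 14 of 297 were members (4.71%, 2.60% to 7.78%). The 73 regions of the developmental genes held the DRE motif in 0 cases (exact binomial interval up to 4.93%), and the GAGA motif in 32. The 14 regions of the machinery genes held the DRE motif in 9 and the GAGA motif in 0. In the longer promoter windows, from 250 bp before the TSS to 49 bp after it, 26 of the 241 developmental genes (10.8%) and 91 of the 297 machinery genes (30.6%) had the DRE motif, members included. The GAGA motif was there in 152 (63.1%) and 57 (19.2%). Among member genes alone, these windows held the DRE motif in 2 of the 67 developmental and 10 of the 14 machinery genes, and the GAGA motif in 51 and 3. The counts by region come from windows of 101 bp about the centre, so the 2 kinds of share are not alike. The 2 groupings were made after the values were seen.

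**Figure D4:**
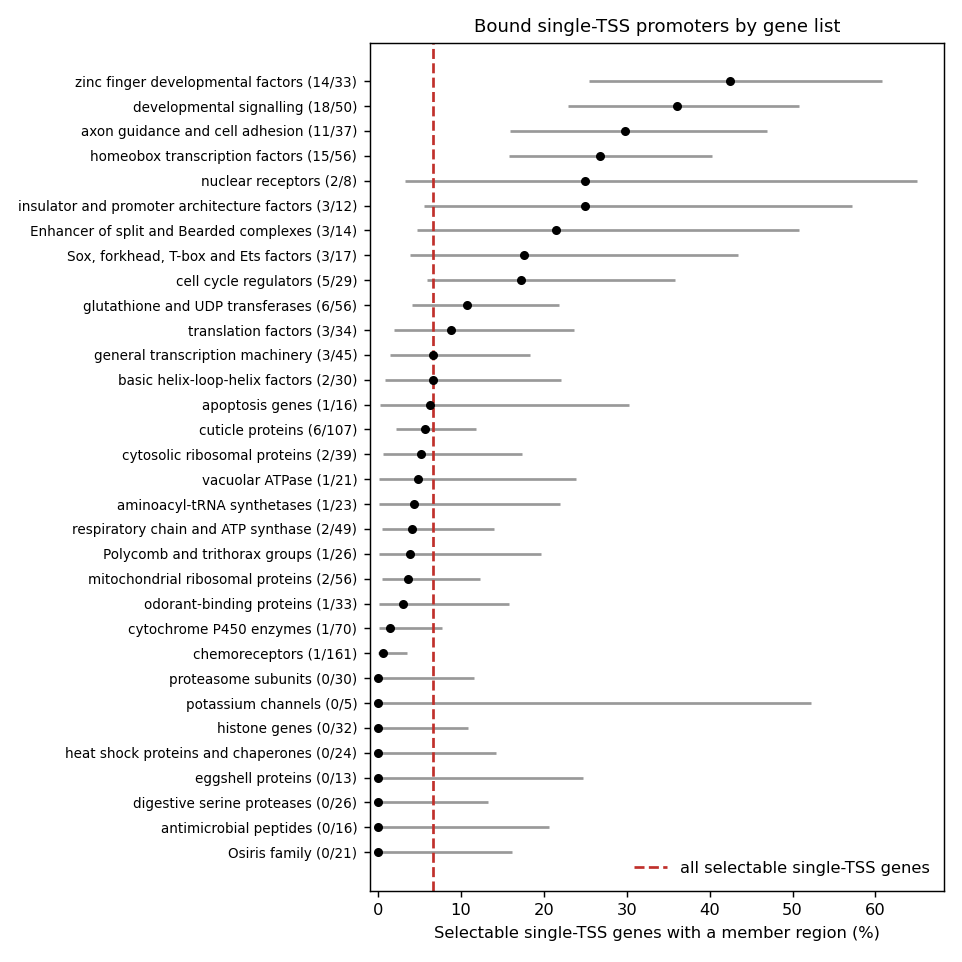
Share of selectable single-TSS genes with a member region in each of 32 gene lists (points, %, with exact 95% binomial intervals as bars), with members and selectable genes in brackets and the share of all selectable genes as the dashed line at 6.56%. The lists of developmental zinc finger factors (42.4%) and developmental signalling genes (36.0%) lie at the top, and 8 lists have 0 members.

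The list of developmental zinc finger factors, a chosen set and not all zinc finger genes, had the highest share of any list. It had 14 members of 33 selectable genes (42.4%). The strongest was noc, a zinc finger factor of ocellus and appendage development, whose centre lay 139 bp upstream of the TSS, with rank percentiles of 98.9, 99.4, 97.8 and 98.9. Its neighbour elB, which encodes a related protein, had 2 member regions, 131 and 895 bp upstream. The pair-rule gene odd, with a centre 31 bp into the 5′ UTR, had rank percentiles of 72.3, 84.6, 55.1 and 78.8. The gene ken, whose product also has a BTB domain and zinc fingers and represses STAT targets, had 65.6, 91.3, 58.1 and 90.9, high in replicates 2 and 4.

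Homeobox genes counted 15 members of 56 (26.8%). The LIM-homeodomain gene tup stood at 79.3, 85.8, 89.2 and 90.7 and the Iroquois gene ara at 76.7, 81.7, 83.5 and 85.3, and both had summits in all 4 libraries. The ladybird gene lbe (93.0 and 84.8) and the head gap gene ems (62.3 and 82.0) had summits only in replicates 1 and 2. The Hox gene Ubx and the limb gene Dll were also members, 121 and 102 bp upstream. Helix-loop-helix genes, with 2 of 30 (6.67%), were near the share of all selectable genes. Those 2 were Myc, the growth regulator, at 85.6, 91.8 and 67.4 in replicates 1, 2 and 4, and emc, an inhibitor of helix-loop-helix factors, at 91.4, 97.1, 23.6 and 87.0, low in replicate 3.

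The list of developmental signalling genes counted 18 members of 50 (36.0%) and spanned several pathways. The Dpp target repressor brk had a centre 233 bp upstream and rank percentiles of 96.2, 98.4, 98.2 and 96.2. Socs36E, an inhibitor of JAK/STAT signalling, was bound in an intron 922 bp downstream of the TSS, with 96.2, 94.7, 97.0 and 97.3. The ligand gene wg, bound 166 bp upstream, had 75, 76.4, 80.4 and 74.8, and the BMP-binding protein gene cv-2, 28 bp upstream, had 88.0, 96.5, 81.6 and 77.8. The receptor genes N and ptc, 156 and 63 bp upstream, were members as well.

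Axon guidance and adhesion genes counted 11 members of 37 (29.7%). The guidance receptor gene robo2, bound 51 bp upstream, had 94.1, 96.6, 87.7 and 87.2. It was also the member nearest to the chinmo gene, at 230754 bp, since chinmo has 2 TSS positions and could not itself be a member. The leucine-rich repeat genes trn (92.8, 91.2, 85.8 and 91.5) and caps (96.4, 98.5, 66.7 and 92.4) were each found in all 4 libraries, and caps was lowest in replicate 3. The teneurin gene Ten-m was bound 15 bp upstream in replicates 1 and 2 only, at 75.8 and 80.8, and again 568 bp upstream in 3 libraries.

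The smaller developmental lists gave few genes. Of 14 genes of the Enhancer of split and Bearded complexes 3 were members, with E(spl)m3-HLH at 89.1, 97.4, 89.2 and 91.0. Of 8 nuclear receptor genes, Hr38 and knrl were members, and Hr38 stood at 91.6, 93.6, 45.3 and 86.1. Of 17 Sox, forkhead, T-box and Ets genes, the neural factor SoxN was found in all 4 libraries (75.5, 64.5, 59.9 and 60.9), and the T-box genes Doc2 and Doc3 in 2 each.

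The members among machinery genes were few, with a median distance of 34.5 bp between centre and TSS. The respiratory chain had 2 of 49 (4.08%), UQCR-14 of complex III (85.2, 92.3, 88.0 and 94.0, 15 bp upstream) and ND-B14.5A of complex I (56.3, 75.9, 83.9 and 85.3, 26 bp upstream), both with the DRE motif. Translation factors had 3 of 34 (8.82%), of which eIF3f1 was the strongest, at 88.5, 96.7, 94.2 and 97.9. Cytosolic ribosomal proteins had 2 of 39 (5.13%), RpS24 and RpL6, both with the DRE motif and with mean rank percentiles of only 24.7 and 24.2, and the centre of RpL6 lay 269 bp upstream. No proteasome gene of 30 and no chaperone gene of 24 was a member. Cell cycle genes had 5 of 29 (17.2%), and Cdk2, BubR1 and CycA of these held the DRE motif.

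Regulators of promoter architecture counted 3 of 12 selectable genes, all of which encode chromatin proteins. The zinc finger gene row, whose product binds heterochromatin proteins, had a centre with the DRE motif 16 bp upstream and rank percentiles of 91.9, 86.3, 90.2 and 95.3. The insulator gene mod(mdg4) had 1 region 29 bp upstream with the DRE motif and another in an intron 924 bp downstream without it. Its intron region ranged from 13.9 in replicate 1 to 90.5 in replicate 4. Of genes for differentiated functions, cuticle proteins had 6 of 107 (5.61%), near the share of all genes, glutathione and UDP transferases 6 of 56 (10.7%), chemoreceptors 1 of 161 (0.621%), cytochrome P450 enzymes 1 of 70 (1.43%), and digestive proteases, antimicrobial peptides, eggshell proteins and the Osiris family 0 of 26, 16, 13 and 21.

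The 20 strongest members found in all 4 libraries had mean rank percentiles from 94.3 to 99.1, and they held the DRE motif alone in 9 cases, the GAGA motif alone in 5 and neither in 6. CG33453 led, with a centre 944 bp upstream and rank percentiles of 98.6, 99.4, 99.2 and 99.4. The Toll family receptor gene 18w, bound 182 bp upstream with the GAGA motif, had 98.4, 97.8, 98.7 and 97.9. The DRE class held Pym, a partner of the exon junction complex (98.7, 99.1, 94.9 and 99.1), mtSSB (98.2, 98.1, 95.5 and 99.0) and spin, a lysosomal transporter gene (97.1, 98.8, 95.7 and 97.3). The genes RhoGAP93B, Pcif1, jagn and eIF3f1 of the same class were lowest in replicate 1, at 90.7, 88.2, 86.5 and 88.5, and at or above 94.2 in the other libraries.

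**Figure D5:**
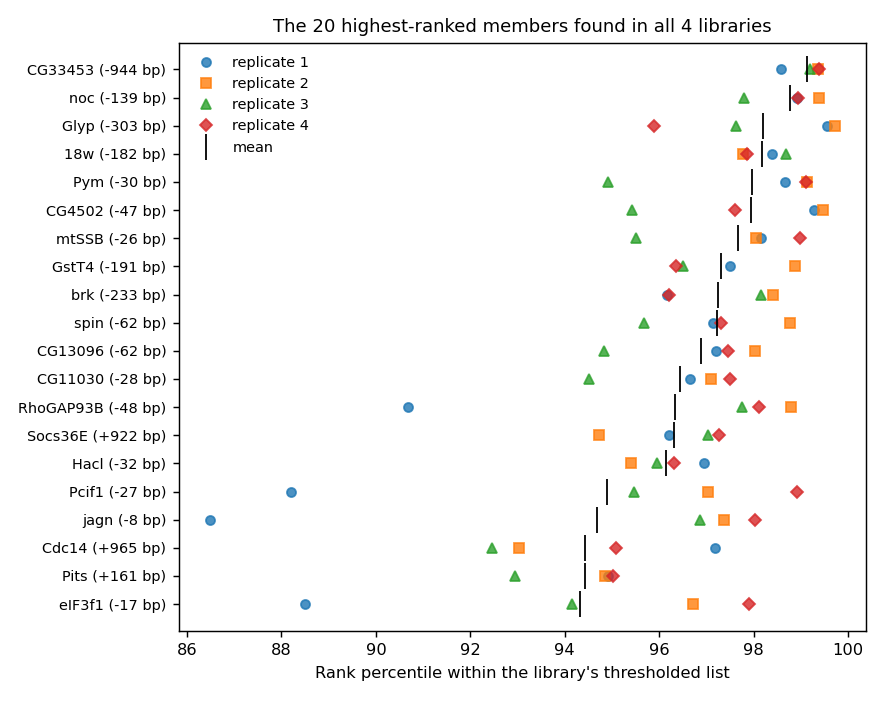
Rank percentile in each library's thresholded list (x axis) of the 20 members with the highest mean among those found in every library, each with its distance from the TSS in bp in brackets. Symbols are the 4 replicates and the bar is their mean, which runs from 94.3 for eIF3f1 to 99.1 for CG33453.

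Most member genes had a single region. Of the 609 genes, 580 had 1 member region, 28 had 2 and CG9743 had 3, at 187, 436 and 752 bp upstream. The region nearest to the CG9743 start site was the strongest, with rank percentiles of 60.8, 86.5, 75.6 and 76.9, and the middle one did not exceed 3.73 in any library. Summits of 1 member spread over a median of 40 bp between libraries, with quartiles of 18 and 75 bp. A TSS of a non-coding gene also lay within 1000 bp of the centre at 68 members (10.6%), and for these the nearest coding gene is not the only annotated gene at hand. A pair of lists that the labels describe as derived from all libraries held 582 members (91.1%) in the one named conservative and 625 (97.8%) in the longest.

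The share of selectable genes that were members varied between chromosome arms. By chromosome arm, 8.14% of selectable genes on 3L were members, 7.02% on 2L, 6.71% on 2R, 5.84% on 3R and 5.09% on X, beside 1 of 42 on the small chromosome 4. The exact binomial intervals of 3L (6.94% to 9.48%) and X (4.01% to 6.36%) did not overlap, as a description over genes. These arms had the highest and the lowest share apart from chromosome 4. Whether all bound regions vary by arm in a like way, and the part of gene length, was not tested.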

How the data were processed

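For each of the 4 libraries the authors deposited a thresholded and a longer ranked list of peaks after an irreproducible discovery rate analysis, on dm6 per the labels. Chromatin was sonicated, per the labels. The aligner, the caller of the peaks and which libraries that analysis compared were not given in the sources used here. The deposited signal value of a peak is the authors' own, without a stated unit, and it was used only for ranks within 1 list.

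Summits were joined, classed and tested in Python 3.11.15 with pandas 2.3.3, numpy 2.4.6, scipy 1.17.1 and statsmodels 0.14.6, and figures were drawn with matplotlib 3.10.9. Gene models came from Ensembl BDGP6.54 (release 115), whose arm lengths held every peak, and sequence from RefSeq Release 6. The joining was tested on simulated summits. Positions are 1-based. Values per library were tested with an exact two-sided sign-flip permutation test over the 4 libraries, with a threshold of 0.05 that cannot be reached, since 0.125 is the smallest p, and adjusted over 12 tests. The p-values take the libraries, which the labels call biological replicates, as units. They equal 0.125 whenever all 4 libraries agree in sign, whatever their spread, which the SD gives. The libraries are also linked, because a member needed a summit in 2 or more of them. Shares of genes carry exact binomial intervals, which cover counting error only.

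The members and the gene lists were chosen with earlier results of these data known, and the motif classes and their tests after the values were seen. Of the list symbols, 28 matched no protein-coding gene. The cytochrome P450 list was corrected after the values were seen, because its pattern had taken in the cyclophilin gene Cyp1. Genes named were the 20 highest-ranked members in all 4 libraries, up to 4 of each list, 3 regions on each side of the distance limit, genes with most regions and the member nearest to chinmo; Ubx, Dll, N, ptc and others named only with a position or count were chosen after their values were seen. Alternatives changed the joining distance, libraries needed, TSS distance, list depth, merging of start sites, motif window and letters, and left out the chinmo locus or each replicate.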

Additional observations from a re-analysis of the deposited data

Results flagged for a closer look

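Among 102 sets of 4 library values examined, 9 had 1 library far from the other 3 for the range of the set. For values from a normal distribution chance gives about 1 in 20, but rank percentiles of strong peaks are bounded at 100, so that rate does not apply to the 8 of these 9 sets that belong to named genes. In 5 of them replicate 3 was the low library. GstD1, a glutathione transferase gene bound 114 bp upstream of its TSS, stood at 24.5 there and at 70.1 to 71.1 in the others. The gene emc stood at 23.6 in replicate 3 and at 87.0 to 97.1 elsewhere, and the nuclear receptor gene Hr38 at 45.3 and at 86.1 to 93.6. For Pym the low value was 94.9 and for Pits, whose product is a partner of the Ttk69 repressor, 92.9, so both remained among the strongest peaks of that list.

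In the other 4 sets replicate 1 was the low library. It gave 86.5 for jagn, 90.7 for RhoGAP93B and 67.5 for E(spl)mbeta-HLH, a Notch-induced repressor gene bound 383 bp upstream. It also gave the difference of -4.24 points in median rank percentile between members and promoters of genes with alternative TSSs, while the other libraries lay between -0.11 and 0.49.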

How the results depend on the processing

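Under 15 alternative settings, 217 of 222 recomputed values kept their direction, or stayed within the interval or the 1.5 times allowed for counts. That total includes values that could not change. The 12 differences in peak width were exactly 0 and were counted as kept. The share of developmental genes did not depend on the motif settings, nor the GAGA shares on the DRE letters. With 3 or more libraries required there were 418 members, and with the upper 50% of each list 355. Leaving out each replicate gave 472 to 591. The rank difference to promoters near several genes turned to -0.19 with the TSS within 250 bp and to -0.23 in the upper 50% of each list, neither beyond the spread between libraries. Developmental genes were 11.0% of member genes, and 14.5% in the upper 50% of each list. The share of their regions with the DRE motif ranged from 0 to 3.08%. The excess of the DRE motif over flanks ranged from 12.6 points with all 8 letters to 31.2 points with the TSS within 250 bp. No paired analysis was possible because there is 1 group. With 4 libraries the sign-flip test cannot pass 0.05, and unknown read depth limits what a missing peak means.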
